A study of Mus musculus with 18 samples.

Results

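The 10 germline genes examined here were Dazl, Ddx4, Mael, Tdrkh, Stk31, Sycp3, Hormad1, Taf7l, Sohlh2 and Tex101, genes named for their use in germ cells and described as silenced in embryonic stem (ES) cells. They were taken by gene symbol from the deposited table of 21859 coding genes, in which all 10 were listed. Promoter upstream transcripts (PROMPTs), RNAs made upstream of and antisense to a gene start, were taken by the same symbols from a table of 32253 PROMPTs. Of the 10 genes, 8 had a PROMPT listed, and Sycp3 and Tdrkh had none.

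The measurements came from transient transcriptome sequencing (TT-seq) of murine E14 ES cells, grown without feeder cells in serum, LIF and the inhibitors known as 2i. TT-seq labels newly made RNA with 4-thiouridine, here for 5 min, and sequences only the labelled RNA, so that the reads follow transcription more closely than the amount of stored RNA. All cells expressed osTIR1, the plant receptor that marks degron-tagged proteins for destruction when auxin is added. The lines used were untagged cells, and SPT16_AID_V5 Clone1 and Clone2, each 1 clone, in which SPT16, a subunit of the histone chaperone FACT, carried a mini-AID degron and a V5 tag at its C-terminus. Each line was treated for 24 h with the auxin 3-IAA or with 0.1% EtOH as vehicle, and each of the 6 conditions had 3 libraries, 18 in all. The untagged cells also received 3-IAA.

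The values used here are 1 per gene, the authors' mean over libraries of normalized reads. Libraries with and without SPT16 depletion entered the same mean, so these values describe the experiment as a whole and give no spread, no test and no difference between conditions. A mean of this kind also cannot show whether a few libraries carried most of the reads. The paper's methods give an approximate depth for the TT-seq libraries, but the depth of each single library is unknown here. In bulk RNA, transcription in a few cells and weak transcription in many cannot be told apart.

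Germ cells run a set of genes that somatic cells and pluripotent cells keep off or low. Many of these genes have promoters rich in CpG, and their repression in ES cells is known to involve DNA methylation and a noncanonical Polycomb complex that contains PCGF6, MGA, MAX, E2F6 and L3MBTL2. In that complex, the MGA and MAX pair recognises the E-box CACGTG and E2F6 recognises E2F sites with a core such as TCCCGC. After germ cells are specified, RNA-binding proteins such as DAZL and DDX4 act on their messages, Piwi-interacting RNAs (piRNAs) hold down transposons, and the chromosome axis is built for meiosis.

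The promoter sequences of the genes show which of these motifs lie close to each start. Shown here are the 150 bases before the RefSeq start (build GRCm38.p6) of the 6 genes that hold an E-box within 250 bases, followed by Dazl, which has none. Each is written from 5′ to 3′ on the strand of the gene, and capitals mark the E-box CACGTG or the E2F core in either orientation, TCCCGC or GCGGGA.
Hormad1 (chr3:95559527-95559676, + strand): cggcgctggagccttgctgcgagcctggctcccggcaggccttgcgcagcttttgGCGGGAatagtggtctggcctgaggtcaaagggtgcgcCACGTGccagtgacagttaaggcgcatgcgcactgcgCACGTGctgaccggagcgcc
Sycp3 (chr10:88459437-88459586, + strand): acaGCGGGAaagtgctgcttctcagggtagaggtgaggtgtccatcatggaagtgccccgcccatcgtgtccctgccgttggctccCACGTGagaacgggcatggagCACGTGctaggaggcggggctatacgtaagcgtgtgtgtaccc
Ddx4 (chr13:112652311-112652460, - strand): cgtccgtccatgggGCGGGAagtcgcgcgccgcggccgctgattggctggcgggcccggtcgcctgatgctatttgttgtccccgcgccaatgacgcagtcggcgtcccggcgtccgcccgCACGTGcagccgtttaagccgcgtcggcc
Stk31 (chr6:49395454-49395603, + strand): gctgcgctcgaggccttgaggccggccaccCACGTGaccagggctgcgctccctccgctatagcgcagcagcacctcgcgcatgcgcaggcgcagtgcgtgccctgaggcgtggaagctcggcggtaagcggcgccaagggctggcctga
Taf7l (chrX:134476491-134476640, - strand): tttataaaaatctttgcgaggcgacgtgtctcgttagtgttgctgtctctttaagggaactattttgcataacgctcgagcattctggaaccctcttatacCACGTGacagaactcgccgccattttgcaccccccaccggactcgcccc
Mael (chr1:166238745-166238894, - strand): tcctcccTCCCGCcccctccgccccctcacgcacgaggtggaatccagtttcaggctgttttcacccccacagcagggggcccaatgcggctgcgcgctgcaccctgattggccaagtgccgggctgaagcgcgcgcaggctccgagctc
Dazl (chr17:50293621-50293770, - strand): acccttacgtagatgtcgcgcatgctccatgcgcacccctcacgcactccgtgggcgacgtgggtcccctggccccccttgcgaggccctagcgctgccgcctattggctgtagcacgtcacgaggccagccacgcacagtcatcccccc

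The promoter window searched ran from 250 bases before to 50 bases after the start, 300 bases in all, on both strands. An E-box was found in 6 of the 10 promoters, those of Hormad1, Sycp3, Ddx4, Stk31, Taf7l and Mael, beside 8.07% of the 16785 coding genes with a promoter sequence. Hormad1 and Sycp3 each held 2 E-boxes, which 0.798% of all promoters did. Counted from the start to the first base of the motif, the E-boxes of Hormad1 lay 57 and 20 bases before it, and those of Sycp3 64 and 43 bases before it. The single E-box lay 29 bases before the start in Ddx4, 49 in Taf7l, 120 in Stk31 and 223 in Mael, the last of these outside the stretch shown.

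The E2F core was found in 4 promoters, each of which also held an E-box. It lay 95 bases before the start in Hormad1, 136 in Ddx4, 143 in Mael and 147 in Sycp3, and Mael held another 11 bases after the start. Of all promoters, 26.6% held the E2F core and 2.84% held both motifs. No match to either motif was found in Dazl, Tdrkh, Sohlh2 or Tex101, which says only that these letters are not in the window searched.

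**Figure D1:**
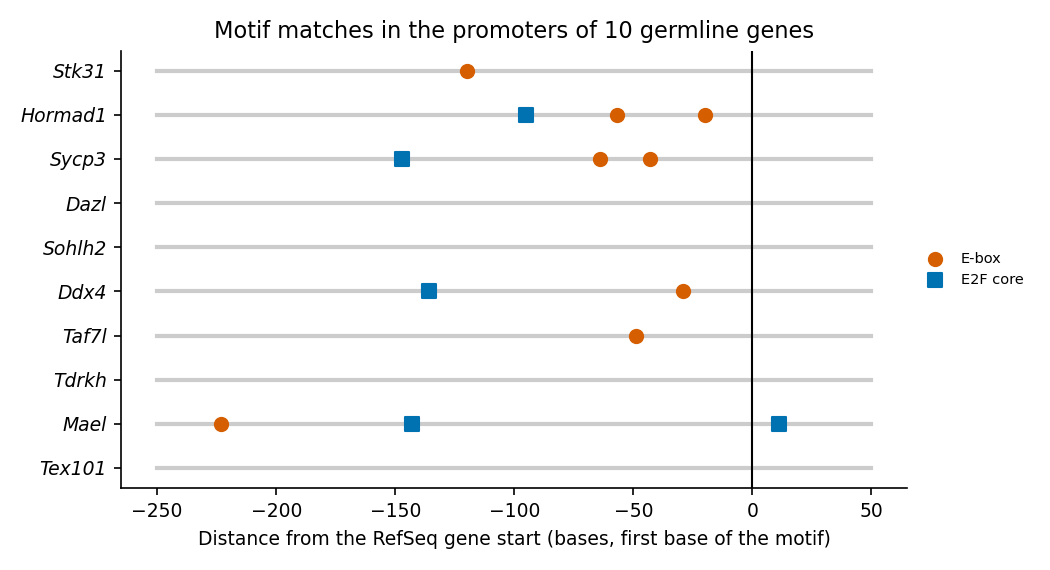
Position of motif matches (bases from the RefSeq gene start, 0 marked by the black line) in the 300-base promoter window of each gene, drawn as a grey bar. Circles mark the E-box and squares the E2F core, and the genes run from the highest to the lowest level. In 6 of 10 promoters there is at least 1 E-box, and in 4 there is an E2F core as well.

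The promoters also tended to be rich in CpG, though not all 10 of them. They held 15 to 38 CpG pairs each (median 24), beside a median of 14 over all promoters, and all 10 were above that median. Ddx4 held the most, 38 (percentile 93.6 of all promoters). Sycp3, with the fewest at 15 (percentile 51.0), and Taf7l and Sohlh2, with 17 each (percentile 55.4), were near the middle of all promoters. The median ratio of observed to expected CpG was 0.765 in the 10 promoters and 0.600 in all promoters. Sohlh2, at 0.545, was below the median of all promoters on that ratio. The median GC content was 64.8% in the 10 promoters and 56.7% in all promoters, with Taf7l lowest of the 10 at 47%. Motifs with a CpG in them are more frequent in such sequence: among the 8217 promoters with at least 15 CpG pairs, 11.6% held an E-box and 45.6% an E2F core. The share of members with an E-box, 60%, was above the share in that set, while the share with an E2F core, 40%, was not. That set starts at the lowest count among the members, 15, whereas their median was 24. It is therefore not matched to the members in CpG, and whether CpG content accounts for their E-box share was not tested. For Tex101 the RefSeq start lies 4625 bases from the outermost GENCODE start, so the window describes an internal start, whereas for the other 9 genes the distance was at most 165 bases.

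Transcription of the 10 genes was then compared with that of all coding genes. The tables pointed to counting over whole gene spans, introns included, so a level is given as mean normalized reads per kb of gene span, and its percentile is the share of the 21417 ranked genes with a lower level. All 10 genes had a mean of at least 1 normalized read per library, and none was listed at 0. Most coding genes were detected too: of 21859 listed, 20157 had a mean above 0 and 17677 a mean of at least 1. Detection is thus not particular to the germline genes. Their levels ran from 3.66 in Tex101 to 40.3 in Stk31, an 11.0-fold range, with a median of 12.7. The median of all ranked genes was 16.6, and 4 of the 10 genes were at or above it. The 10 genes lay between percentiles 39.3 and 58.5, so none of them was without reads in these pooled values, as the term silenced might be taken to mean. A percentile near 40 is also reached by some markers of another cell type. By gene span, the fibroblast markers Thy1 (percentile 41.3) and Pdgfra (percentile 40.9), at 4.94 and 4.62 reads per kb, lay above Tex101. The other 4 fibroblast markers lay below Tex101, at percentiles 33.9 (Col1a1), 23.1 (Col1a2), 14.3 (Col3a1) and 14.1 (Dcn). Per kb of exons, Pdgfra (percentile 40.1) was still above Tex101 (percentile 39.4), but Thy1 (percentile 34.2) was below it. Among genes with a mean of at least 1, the median level was 41.3, and all 10 germline genes lay below it.

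**Figure D2:**
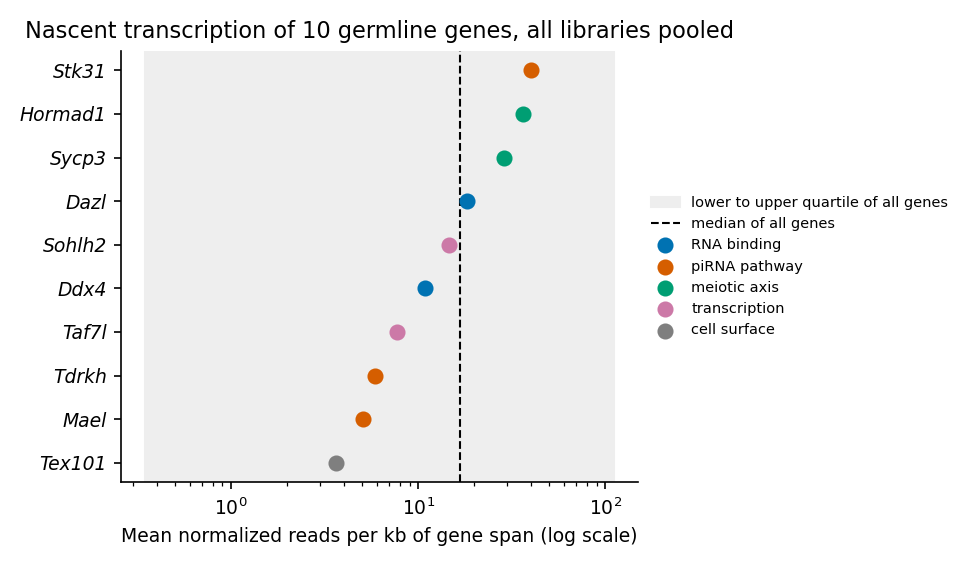
Mean normalized reads per kb of gene span (log axis) of the 10 germline genes, each 1 value pooled over all libraries and so without an error bar. Colours give the role of the gene, the dashed line the median of all coding genes (16.6) and the grey band the range from their lower to their upper quartile (0.346 to 111). All 10 points lie within the band, from Tex101 at 3.66 to Stk31 at 40.3.

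Dazl and Ddx4 encode RNA-binding proteins of germ cells, DAZL a regulator of translation and DDX4 (also known as VASA) a DEAD-box helicase. Dazl (ENSMUSG00000010592, chr17:50279395-50293636 on GRCm38, minus strand) had a mean of 259 normalized reads over a span of 14.2 kb. That is 18.2 reads per kb, percentile 50.7, the member closest to the median of all genes. Ddx4 (ENSMUSG00000021758, chr13:112598333-112652475, minus strand) had a higher mean, 585, but over a span of 54.1 kb, which gives 10.8 reads per kb and percentile 46.7. With no values per library, it was not tested whether these neighbouring levels differ, and the same holds for every pair of genes below.

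Mael, Tdrkh and Stk31 belong to the piRNA pathway or to its Tudor-domain proteins. Stk31, which encodes a protein with a Tudor and a kinase domain, was the highest of the 10 genes. Its mean of 2979 normalized reads over 73.9 kb (ENSMUSG00000023403, chr6:49395604-49469501, plus strand) gave 40.3 reads per kb, 2.42 times the median of all genes and percentile 58.5. Tdrkh, whose product carries Tudor and KH domains and takes part in trimming piRNAs, had a mean of 126 reads over 21.4 kb (ENSMUSG00000041912, chr3:94413273-94434668, plus strand). This is 5.88 reads per kb and percentile 42.4. Mael, needed to silence transposons in the male germline, had 191 reads over 37.5 kb (ENSMUSG00000040629, chr1:166201201-166238747, minus strand), or 5.10 reads per kb and percentile 41.5. By span, the piRNA group therefore held both the highest and 2 of the 3 lowest of the 10 levels. Mael was not among the 3 lowest on the other scales: it was number 6 from the top per kb of exons and number 7 without length.

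Sycp3 and Hormad1 encode proteins of the meiotic chromosome axis, SYCP3 a component of the lateral elements of the synaptonemal complex and HORMAD1 a regulator of synapsis and of recombination checkpoints. Hormad1 (ENSMUSG00000028109, chr3:95559677-95587671, plus strand) had a mean of 1020 reads over 28.0 kb, which gives 36.4 reads per kb and percentile 57.3. Sycp3 (ENSMUSG00000020059, chr10:88459569-88473236, plus strand) had 395 reads over 13.7 kb, or 28.9 reads per kb and percentile 54.9. These genes were the second and the third highest of the 10, 2.19 and 1.73 times the median of all genes, and they are the members with 2 E-boxes. Sycp3 lies inside the span of Chpt1, which runs on the opposite strand at 36.2 reads per kb, and the reads were counted by strand. Gnptab, on the same strand as Sycp3, ends 12.2 kb upstream of it and had 78.9 reads per kb. Whether reads past the end of Gnptab add to Sycp3 was not tested.

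Taf7l encodes a germ cell paralogue of the TFIID subunit TAF7, and Sohlh2 a basic helix-loop-helix factor of early spermatogenesis and oogenesis. Sohlh2 (ENSMUSG00000027794, chr3:55182028-55209957, plus strand) had a mean of 407 reads over 27.9 kb, or 14.6 reads per kb and percentile 49.0. Taf7l (ENSMUSG00000009596, chrX:134460118-134476490, minus strand) had 127 reads over 16.4 kb, or 7.73 reads per kb and percentile 44.4. Sohlh2 was thus just below and Taf7l 2.15-fold below the median of all genes.

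Tex101 encodes a glycoprotein anchored at the surface of germ cells and needed for sperm fertility. It was the lowest of the 10 genes on each scale used, with a mean of 31.7 reads over 8.67 kb (ENSMUSG00000062773, chr7:24668007-24676675, minus strand). This gives 3.66 reads per kb, 4.55-fold below the median of all genes, and percentile 39.3.

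The genes do not lie in 1 cluster. Chromosome 3 carries 3 of them, Tdrkh, Hormad1 and Sohlh2, beside 4.65% of all ranked genes, and the others lie on 7 chromosomes. The nearest coding genes had levels both well above and well below those of the members. Hormad1 lies 3.27 kb downstream of Ctss, a lysosomal protease gene with 0.564 reads per kb, and 1.26 kb upstream of Golph3l with 87.2 reads per kb. Stk31 lies 5.07 kb downstream of Fam221a on the same strand, which had 79.6 reads per kb. Whether reads past the end of Fam221a add to the level of Stk31 was not tested. Tdrkh overlaps Oaz3, a testis antizyme gene on the opposite strand with 1.38 reads per kb. The genes next to Tex101 were both low, Lypd10 with 0.233 and Lypd3 with 0.888 reads per kb, 32.6 and 26.9 kb away.

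The levels were next set beside the motifs. Genes with an E-box had 5.10 to 40.3 reads per kb (median 19.8) and those without one 3.66 to 18.2 (median 10.2). The ranges overlap, although the 3 highest genes all held an E-box. Over all coding genes, those with an E-box in the promoter had a median percentile of 67.2 and those without one 50.2, so a higher level with an E-box is not particular to the germline genes.

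PROMPT levels gave a second view of the same promoters. Over the PROMPT table, 72.1% of rows had a mean above 0, and the median mean was 0.262 normalized reads. Of the 8 member PROMPTs, 2 had a mean of at least 1, those of Tex101 at 4.74 (percentile 82.1 of all PROMPTs) and Hormad1 at 1.02 (percentile 66.6). The PROMPTs of Stk31 (0.787), Sohlh2 (0.736) and Taf7l (0.719) lay above the median of all PROMPTs, and those of Ddx4 (0.210) and Mael (0.0385) below it. The value of Mael is shared by 165 PROMPT rows, the pattern that a single read in 1 library leaves. The PROMPT of Dazl was listed at 0. Means this low rest on few reads, and no order is drawn from the 6 PROMPTs under 1.

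Among the 18091 coding genes with a PROMPT listed, 42.8% had a PROMPT mean of at least 1 and 21.5% a PROMPT listed at 0. Among the 3427 of them whose level lay within the range of the 10 germline genes, these shares were 46.9% and 8.14%. The 2 of 8 and 1 of 8 found here are counts too small to set against those shares. The gene level per kb exceeded the PROMPT mean in 7 of 8 cases, Dazl with its PROMPT at 0 among them. The PROMPT mean is not divided by length, and its window is at most 1 kb, so a shorter window would favour the gene. A ratio of gene level to PROMPT mean is given only for the 2 PROMPTs with a mean of at least 1. Over the 3148 genes in the same range of levels whose PROMPT was above 0, the median ratio was 12.4. A gene level above the PROMPT mean is thus common and not particular to the germline genes. In Hormad1 the ratio was 35.6. In Tex101 it was 0.772: the antisense transcript upstream had more reads in its window than the gene had per kb. Which of the starts of Tex101 the PROMPT was counted from is not given in the sources used here.

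**Figure D3:**
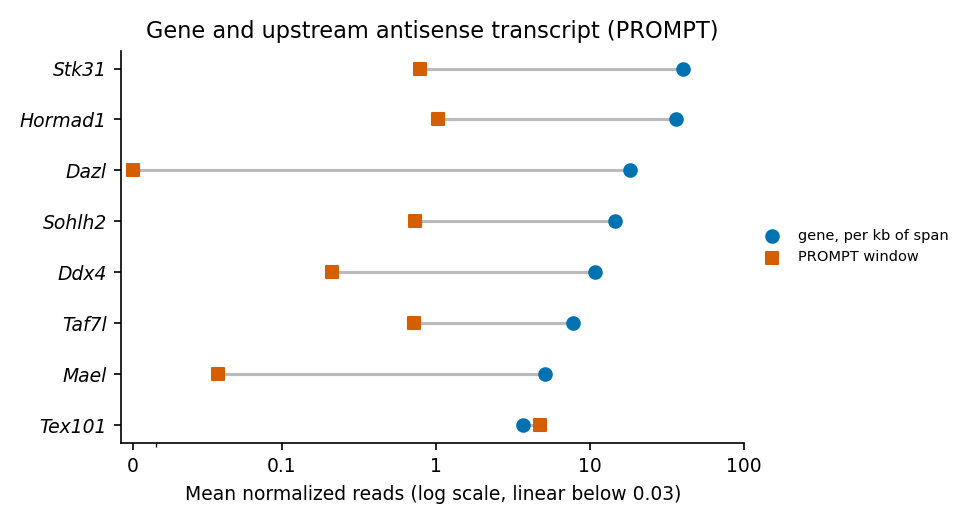
Gene level (circles, mean normalized reads per kb of span) and PROMPT mean (squares, mean normalized reads in the window) of the 8 germline genes with a PROMPT listed, joined by a line. The axis is logarithmic above 0.03 and linear below it, so that the 0 of Dazl can be drawn. The circle lies to the right of the square in every gene but Tex101, where the PROMPT is at 4.74 and the gene at 3.66.

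Lists of other genes of the same roles had wider ranges of levels than the 10 genes. Those lists are longer, and a range can only widen as genes are added, so the widths are not compared. Of 30 further genes of the chromosome axis and of meiotic recombination, 29 could be ranked, and their levels ran from 0.350 to 148 reads per kb with a median percentile of 49.4. The highest were Syce2, a central element protein of the synaptonemal complex, at 148, and Hsf2bp, which acts in meiotic recombination, at 99.4. The lowest were Rad21l, a meiotic cohesin subunit, at 0.350, and Spo11, which makes the double-strand breaks of meiosis, at 0.490. Of these 29 genes, 14 were at or above the median of all genes, 7 were above Stk31 and 10 were below Tex101. Spata22 was listed at 0, but it shares its whole span with another gene and has no level here.

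Of 20 further genes of the piRNA pathway, 6 were at or above the median of all genes, and their median percentile was 39.3. Tex19.1 at 463 and Rnf17 at 106 reads per kb were the highest, and Asz1 at 0.154 and Tdrd6 at 0.302 the lowest. Tex19.1 restrains transposons and is also active in ES cells, Rnf17 encodes a Tudor-domain protein, and Asz1 and Tdrd6 encode proteins of the germ granules. Of the 20 genes, 10 were below Tex101 and 4 above Stk31.

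Of 19 germ cell regulators, 18 could be ranked, with a median percentile of 48.3 and 8 at or above the median of all genes. Kit, the receptor of stem cell factor, at 204 and Prdm14, a regulator of pluripotency and of primordial germ cells, at 180 reads per kb were the highest. Figla at 0.445 and Sohlh1 at 0.521, transcription factors of oocytes and of spermatogonia, were the lowest. Sohlh1, the partner of SOHLH2, was therefore far below Sohlh2 with its 14.6 reads per kb.

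Genes listed here as repressors of germline genes were higher. The list was written from general knowledge and also holds genes of general chromatin proteins. No list of other chromatin genes was set beside it, so the higher level is not shown to be particular to repressors. All 26 were at or above the median of all genes, with 27.2 to 600 reads per kb and a median percentile of 89.4, and 25 of them were above Stk31. Wdr5 at 600 and Rybp at 582 were the highest. Dnmt3a, a de novo DNA methyltransferase, at 27.2 and Yaf2, a Polycomb cofactor, at 41.8 were the lowest.

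Marker genes gave a frame for these levels. All 8 markers of ES cells were above the median of all genes, from Utf1 at 187 and Esrrb at 401 to Sox2 at 2910 and Dppa5a at 5779 reads per kb. The 6 fibroblast markers were all below the median, with Thy1 at 4.94 the highest, Pdgfra at 4.62 next, and Col3a1 at 0.0532 and Dcn at 0.0510 the lowest. The 5 spermatid markers were all below Tex101, from Tnp2 at 0.707 and Prm1 at 0.148 down to Tnp1 at 0.0986 and Prm2 at 0.0464. Of 4 markers of testis somatic cells, Amh had 53.3 reads per kb, Cyp17a1 0.183, Hsd3b6 was listed at 0, and Insl3 shares its span with another gene and has no level. Of 4 markers of the two-cell-like state, Zscan4d was at 62.9, Zscan4c at 19.9, Tcstv3 at 8.86 and Tcstv1 at 0.920 reads per kb. These last genes belong to families of near-identical copies, so their values are uncertain where only unique alignments were kept.

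**Figure D4:**
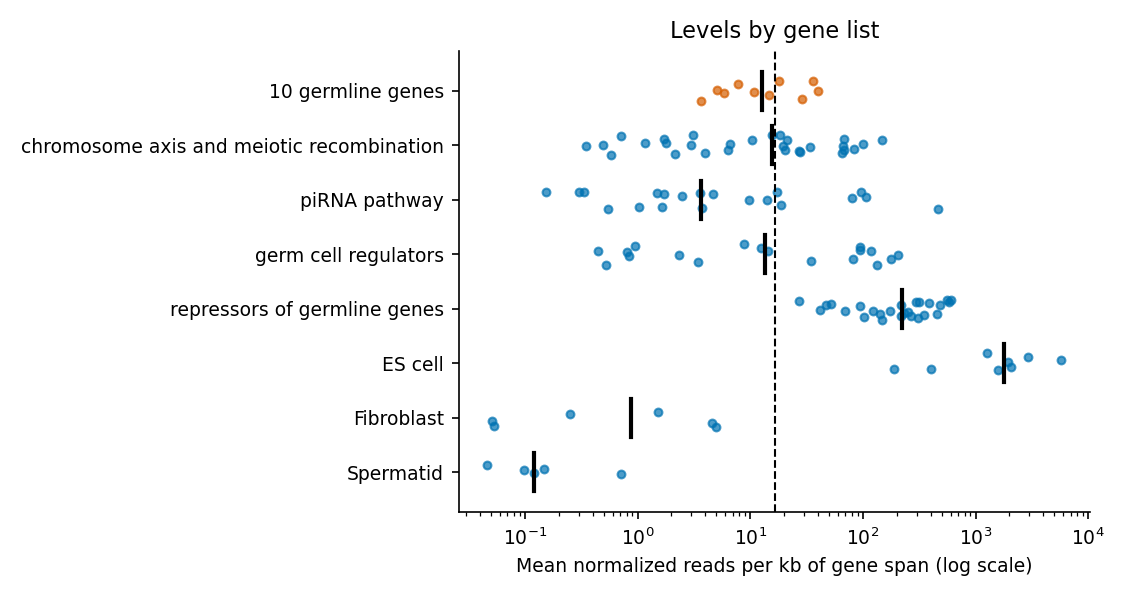
Mean normalized reads per kb of gene span (log axis) of each gene in the lists named at the left, 1 point per gene with a level above 0, with the median of each list as a black bar and the median of all coding genes as a dashed line. Vertical scatter within a row only separates the points. The 10 germline genes (orange) lie between 3.66 and 40.3, below 25 of the 26 repressor genes and above all 5 spermatid markers.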

How the data were processed

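TT-seq libraries from ES cells were made by the authors with a directional kit. Reads were trimmed, aligned with STAR to mm10 and counted by strand with featureCounts per the paper's methods, while the submitters' processing notes name HTSeq. The paper names GENCODE vM25 genes for its downstream analyses and does not state the release used for counting. The authors divided the counts by DESeq2 size factors and deposited the mean over all libraries, a normalized signal with no values per library. The tables also hold the authors' own comparison of SPT16-depleted with control libraries (log2 fold changes, standard errors and p-values), which was not used, so no change upon depletion is reported. Labels give 500 nM for 3-IAA, and the methods a micromolar dose.

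Gene spans and exons came from GENCODE vM21 on GRCm38, in which 21817 of 21859 genes were found. Of 190 genes lying within a same-strand gene with no shared exon, 188 (98.9%) were at 0, against 5.76% of 20447 genes with no overlap, so counting was taken to cover whole spans. Levels are per kb of span not shared with another same-strand gene, and 21417 genes with such bases were ranked. Merged exons, the length chosen first, became the alternative after this was seen.

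Promoters came from RefSeq (GRCm38.p6). All 10 genes had a promoter there. Named genes were the 10 members and the 2 highest and 2 lowest of each list. The members and lists were chosen with earlier results of these data known. Other alternatives were a limit of 10 in place of 1, ranking without length or among genes with a mean of at least 1, and motif search before the start only. Ranks and motif searches were tested on simulated data. Python 3.11.15, pandas 2.3.3, numpy 2.4.6, scipy 1.17.1 and matplotlib 3.10.9 were used.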

Additional observations from a re-analysis of the deposited data

How the results depend on the processing

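No paired analysis was possible because the deposited values are means over all libraries, and for the same reason no replicate could be left out. Of 15 alternatives, 6 kept the value within 1.5 times (counts) or within the 95% exact binomial interval (percentiles), and 9 moved it. That interval treats the percentile as a share of the 21417 ranked genes. It is narrow and does not measure the spread of a median over 10 genes or over a list. For percentiles, a value that moved is therefore only a difference in size. The number of genes at or above the median of all genes, 4 by span, was 6 per kb of merged exons and 5 without length, and 0 when only genes with a mean of at least 1 were ranked. The median percentile of the 10 genes, 47.8, became 55.3 per kb of exons, 51.4 without length and 36.8 among genes with a mean of at least 1. The range of percentiles, 39.3 (Tex101) to 58.5 (Stk31) by span, was 39.4 to 83.2 per kb of exons and 35.5 to 77.3 without length. Per kb of exons, Stk31 (83.2) and Hormad1 (75.5) lay above the upper quartile, so the place of all 10 genes between the quartiles holds by span only. Per kb of exons, the median percentile was 55.8 for the axis and recombination list, 46.7 for the piRNA list and 54.1 for the germ cell regulators, and the repressors stayed at 89.2. No member PROMPT reached a mean of 10, and 2 in place of 5 were above the median when only PROMPTs above 0 were taken. The counts of genes with a mean of at least 10, of PROMPT means below the gene level per kb and of promoters with a motif before the start were 10, 7 and 6. The number of all coding genes with a mean of at least 10 was not taken, so the first of these counts has no background. Low PROMPT means limit what their order can show.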
